A study of Mus musculus with 6 samples.

Results

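Mvt1 cells, a mouse mammary epithelial cancer line of the FVB/N strain, were stained for the surface protein CD24 and sorted into CD24- and CD24+ groups, and mRNA of 3 plates of each group was sequenced. The labels give the groups no further treatment or genotype. Both come from 1 line, the sources name no separate sorts, and p-values therefore measure the spread between plates. Other differences between the sorted groups cannot be told apart from CD24 itself. In the deposited files every distinct 47-nt sequence carries 1 genome location and 1 annotation, and the reads described here are those whose annotation field was empty. Their counts were summed in fixed 10-kb windows of the mm9 genome, and windows with at least 100 such reads over the 6 libraries were kept. This left 7393 of 45206 windows that held any unannotated read, and the kept windows held 97.6% of the unannotated reads. They were compared within a table of 45974 window features of every annotation class. The windows were thus chosen by their measured read counts, so the level of a window is a description. The minimum was on raw reads, so a window could pass through the group where it is high alone. It could do so at a lower RPM in CD24+, whose plates together were sequenced deeper. The counts of higher and lower windows carry this limit. The 159 windows just inside the minimum held 100 to 104 reads, with a median of 1.01 RPM (reads scaled to 1000000 mapped reads of the library) in CD24- and 1.02 RPM in CD24+. The 144 windows just outside held 95 to 99 reads, with medians of 0.981 and 0.961 RPM.

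Reads fall outside an annotation for several reasons. A gene model may lack an exon, or the far end of the 3' untranslated region (UTR), which follows the coding sequence and ends shortly after a polyadenylation signal. A processed pseudogene is a copy of a spliced mRNA inserted elsewhere in the genome, and a nuclear mitochondrial segment is a copy of mitochondrial DNA in a chromosome. A short read of the parent RNA then fits the copy letter for letter and may be placed there. Long noncoding RNAs, which are transcribed and often spliced but encode no protein, were poorly covered by early gene sets. To sort the unannotated sequences, each was matched exactly, on both strands, to the transcripts of GENCODE M21. These are spliced sequences, so a read inside an intron of a known gene counts as matching no transcript unless another transcript holds it. Introns and sequence between genes were not told apart.

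The library totals ranged from 9046025 to 25692147 mapped reads, so that 1 read stood for 0.0389 to 0.111 RPM. CD24+ plate 1 was the shallowest library and stood apart, with 33.3% of its unannotated reads of mitochondrial sequence against 20.6% to 23.4% in the other libraries. CD24+ plate 2 had 3.73% of its mapped reads annotated as small RNA, against 0.988% to 1.8% in the other libraries, and these reads are part of the total that RPM is scaled to. Cd24a, the gene of the sorted protein, had 5.13 to 8.97 RPM in CD24- and 51.5 to 61.8 RPM in CD24+. Of the 6 epithelial markers, Krt8 had 839 to 953 RPM in CD24- and 401 to 468 RPM in CD24+. Krt18 had 508 to 564 and 145 to 163 RPM, and Krt19 8.42 to 9.44 and 2.12 to 2.65 RPM. Epcam, Cdh1 and Krt7 did not exceed 0.272 RPM in any library, so the epithelial label rests on Krt8, Krt18 and Krt19. The summed fibroblast markers had 5.55 to 10.5 RPM in CD24- and 42.3 to 68.7 RPM in CD24+, mostly Pdgfrb, with Lum and Thy1 at 0. The summed myoepithelial markers had 0.078 to 0.774 RPM in CD24- and 4.69 to 10.4 RPM in CD24+, with Krt5 and Krt14 not above 0.0778 RPM. The summed endothelial markers did not exceed 2.96 RPM. Of the leukocyte markers, Cd68 had 31.9 to 56.5 RPM in CD24- and 5.02 to 6.63 RPM in CD24+, while Adgre1 and Cd3e were at 0. A gene can lack reads annotated to its name and still be transcribed, as with Dsp below, so a marker at 0 need not be absent. In such bulk samples fewer cells of a type and less RNA per cell cannot be told apart, and the part of these markers in the window results was not tested.

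The sequences below show the kinds of RNA that the unannotated windows held, with positions in mm9. The first 3 are the most frequent sequence of their kind in a window whose reads match a transcript encoded somewhere else, and they are shown because letters alone cannot tell the copy from its parent. The first lies at chr1:24622574-24622620 on the plus strand and equals part of mt-Co1, a mitochondrial subunit of cytochrome oxidase. It was counted 10196 times.
Mitochondrial copy on chromosome 1: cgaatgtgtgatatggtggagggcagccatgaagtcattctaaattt
Eef1a1 copy, chr1:130417694-130417740, minus strand: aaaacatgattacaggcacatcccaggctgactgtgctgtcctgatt
Rpl12 copy, chr10:29419111-29419157, minus strand: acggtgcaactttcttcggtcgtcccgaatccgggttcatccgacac
The next pair comes from windows that lie on a gene. Capitals mark the hexamers AATAAA and ATTAAA, the usual polyadenylation signals, or TTTATT and TTTAAT, which are the same letters on the other strand. The Malat1 sequence holds one and the Xist sequence none. Such a hexamer was in 7.24% of the 3272237 distinct unannotated sequences.
Malat1, chr19:5799423-5799469, plus strand: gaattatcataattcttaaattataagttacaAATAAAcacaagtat
Xist, chrX:100674503-100674549, minus strand: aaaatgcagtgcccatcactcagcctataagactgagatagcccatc
The last 5 are stretches of 200 bases tiled from overlapping reads in isolated windows where most reads matched no transcript. They are written on the plus strand, and the windows themselves are described further on. All unannotated reads of a window were tiled, matched or not, here and in the hexamer share below. A stretch can therefore hold sequence of a known gene. In the window on chromosome 7, 48.8% of the reads matched coding sequence of Psg20.
chr1:7038924-7039123: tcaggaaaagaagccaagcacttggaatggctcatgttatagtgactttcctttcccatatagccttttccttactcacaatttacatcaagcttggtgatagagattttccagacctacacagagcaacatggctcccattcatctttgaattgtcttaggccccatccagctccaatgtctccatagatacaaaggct
chr13:103166669-103166868: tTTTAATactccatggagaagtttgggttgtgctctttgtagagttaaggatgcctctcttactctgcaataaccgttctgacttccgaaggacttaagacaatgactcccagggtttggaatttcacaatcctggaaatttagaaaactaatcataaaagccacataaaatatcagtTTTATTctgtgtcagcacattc
chr7:19266205-19266404: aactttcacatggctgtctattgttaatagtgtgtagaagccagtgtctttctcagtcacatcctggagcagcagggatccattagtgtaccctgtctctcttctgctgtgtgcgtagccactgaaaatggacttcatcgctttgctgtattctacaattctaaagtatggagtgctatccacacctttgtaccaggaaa
chr2:134555440-134555639: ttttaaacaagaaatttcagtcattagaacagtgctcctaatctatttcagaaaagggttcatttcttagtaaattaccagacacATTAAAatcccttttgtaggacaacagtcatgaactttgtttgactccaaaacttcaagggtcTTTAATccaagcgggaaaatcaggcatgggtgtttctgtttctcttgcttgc
chr17:27033460-27033659: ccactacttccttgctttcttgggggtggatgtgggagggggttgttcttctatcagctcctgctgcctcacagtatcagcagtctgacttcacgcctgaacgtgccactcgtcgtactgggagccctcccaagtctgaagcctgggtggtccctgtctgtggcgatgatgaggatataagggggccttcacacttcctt
Of the 971 windows led by unmatched reads, 757 had a covered stretch of 200 bases, and the best covered stretch held one of the hexamers in 23.2% of those 757. The stretches on chromosomes 13 and 2 each held 2 of them, and the other 3 held none.

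Most unannotated reads belonged to known RNAs. Of 17363792 unannotated reads, 38.2% matched a transcript that is encoded elsewhere, 33.6% matched only a gene in the same part of the same chromosome, 22.9% were mitochondrial and 5.3% matched no GENCODE transcript. A read that fit both a gene in that part and a transcript encoded elsewhere was counted as encoded elsewhere. This held also where the gene in place was the parent. In the Ckb window chr12:112900001-112910000, 95.8% of the reads were counted so, through a match to the pseudogene Gm12892. The class therefore mixes reads placed on a copy with reads placed on the parent gene. Of the reads on a gene in place, 53.7% lay in 3' UTRs, 32.3% in coding sequence, 4.04% in 5' UTRs and 9.92% in transcripts without a coding sequence. By the class that held at least 50% of a window's reads, 4420 windows belonged to a gene in place, 1975 to transcripts encoded elsewhere, 971 to no transcript and 8 to mitochondrial sequence, and 19 were mixed. Of the 1975 windows of transcripts encoded elsewhere, 1507 held a processed pseudogene of GENCODE M21.

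**Figure D1:**
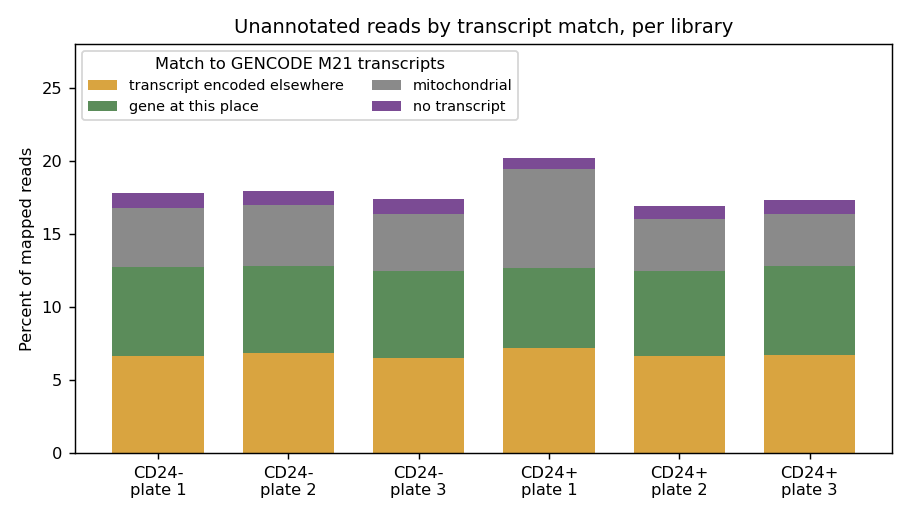
Stacked bars give the percent of mapped reads of each library that had no annotation, split by their match to GENCODE M21 transcripts. CD24+ plate 1 reaches 20.2% with 6.73% mitochondrial reads, while the other 5 libraries lie between 16.9% and 18.0% with 3.51% to 4.2% mitochondrial reads.

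The share of mapped reads without annotation was 17.8%, 18.0% and 17.4% in the CD24- plates and 20.2%, 16.9% and 17.3% in the CD24+ plates. The CD24+ values thus lay on both sides of the CD24- values. The means were 17.7% ± 0.294 and 18.1% ± 1.79 (SD, n = 3 plates), with a two-sided exact permutation p of 1.0, and 3 plates against 3 cannot give a p below 0.1. The difference of 0.422 percentage points turned to -0.607 without CD24+ plate 1. The reads that matched no transcript made up 0.997% ± 0.0359 of the mapped reads in CD24- and 0.87% ± 0.0833 in CD24+. Here every CD24- plate was above every CD24+ plate, and the exact permutation p was 0.1, the smallest this design allows.

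In the comparison of windows, 1120 windows were higher and 1101 lower in CD24+ at a Benjamini-Hochberg adjusted p below 0.05 by edgeR's quasi-likelihood test across all 45974 features. These are 15.1% and 14.9%, together 2221 windows or 30.0% of the 7393. Of the 30415 gene-annotated windows 14.8% were higher and 19.4% lower, together 34.2%, and of the 8029 repeat-annotated windows 8.2% and 23.1%, together 31.3%. Over all features 13.8% were higher and 19.3% lower, together 33.1%. The groups did not overlap in 42.8% of the unannotated, 48.2% of the gene-annotated and 44.9% of the repeat-annotated windows, and in 46.8% of all features. The split into higher and lower windows was 1396 and 898 with TMM scaling, but 875 and 844 with scaling to the unannotated reads. It was 1084 and 714 with DESeq2, which changes both scaling and test, and 1023 and 501 with each distinct sequence counted once in a library. The median log2 fold change over the windows was 0.0 with scaling to all mapped reads and 0.08 with TMM. An absolute log2 fold change of at least 1 was met by 456 of the higher and 350 of the lower windows.

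By class, the counts of called windows stand beside the 15.1% higher and 14.9% lower of all unannotated windows. Windows on a gene in place gave 815 higher and 744 lower of 4420, which is 18.4% and 16.8%. Windows of transcripts encoded elsewhere gave 174 higher and 152 lower of 1975, which is 8.81% and 7.7%. Windows without a transcript gave 130 higher and 200 lower of 971, which is 13.4% and 20.6%. Such windows may lie in introns of known genes, which was not tested. Of the 8 mitochondrial windows 0 were called by edgeR, with 0 at an unadjusted p below 0.05 and 0 by DESeq2 or limma. Within the windows on a gene in place, those led by 3' UTR reads gave 524 higher and 320 lower of 2036, whereas those led by coding reads gave 163 higher and 310 lower of 1550. The classes hold windows of different depth, with a median of 848 reads for transcripts encoded elsewhere, 450 for genes in place and 202 without a transcript. The part of depth in these counts was not tested.

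**Figure D2:**
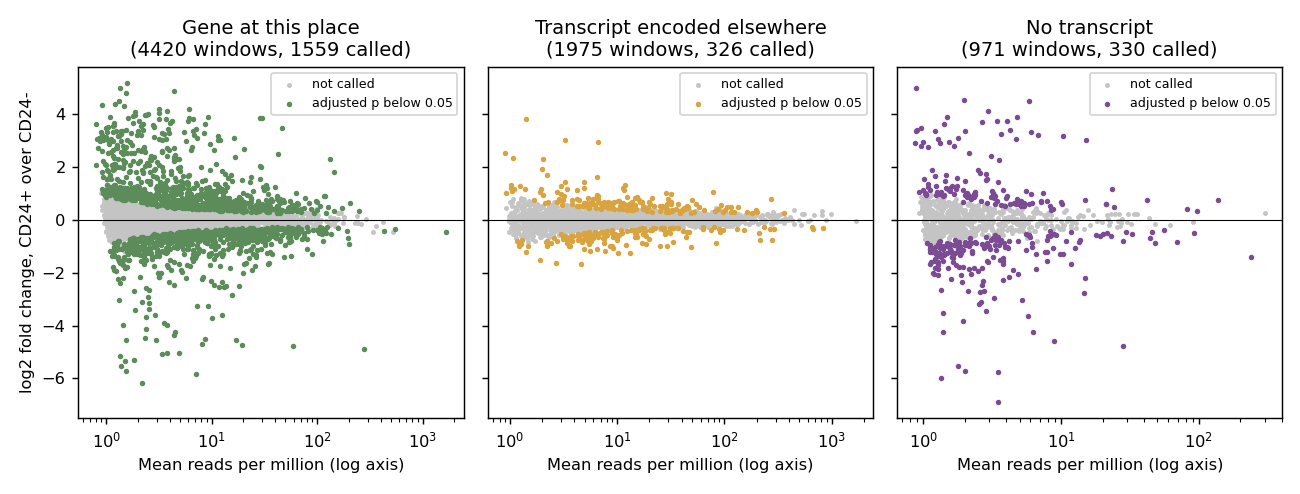
Each point is a 10-kb window, with the mean RPM over the 6 libraries on a log axis and the log2 fold change of CD24+ over CD24- on the vertical axis, in a panel for each class. Coloured points passed an adjusted p below 0.05. The middle 90% of windows of transcripts encoded elsewhere lie between -0.57 and 0.61, against -0.99 and 1.49 for genes in place and -1.67 and 1.28 for windows without a transcript.

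An isolated window had fewer than 10 gene-annotated reads in it and in each of the windows beside it. There were 3239 isolated windows, and 864 of them were called, 367 higher and 497 lower. This is 26.7%, beside 32.7% of the 4154 windows that were not isolated and 30.0% of all unannotated windows.

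The 10 windows with the most reads held 26.6% of the unannotated reads. Of these, 4 were mitochondrial, 5 matched transcripts encoded elsewhere and 1 lay on a gene in place. Among the 5 was chr11:6310001-6320000, where 99.9% of the reads also matched the protein-coding gene Ppia in place and the leading distant match was Gm17494. The window chr1:24620001-24630000 held 1508013 reads, of which 0.299% matched no transcript and 99.7% were mitochondrial, among them mt-Co1, whose sequence is given above. It had 15000, 15500 and 13800 RPM in the CD24- plates and 26400, 13300 and 14100 RPM in the CD24+ plates. The high value was that of CD24+ plate 1, and the groups overlapped (log2 fold change 0.28 ± 0.19 (SE), edgeR adjusted p = 0.282). Both windows of chromosome M were highest in the same plate, with 17500 and 17400 RPM in CD24+ plate 1 and at most 12400 RPM in any other library. Without CD24+ plate 1, the window chrM:1-10000 had a log2 fold change of -0.3 (edgeR adjusted p = 0.0152), and chr1:24610001-24620000, which holds mt-Nd4 sequence, one of -0.26 (adjusted p = 0.019). With all libraries their values were 0.05 and 0.12.

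Among the 10 windows with the most reads were copies of abundant mRNAs of protein synthesis. The window chr1:130410001-130420000, with the Eef1a1 copy shown above, had 946, 882 and 822 RPM in CD24- and 939, 791 and 924 RPM in CD24+. Eef1a1 encodes the translation elongation factor that brings aminoacyl-tRNA to the ribosome, and the groups overlapped (log2 fold change 0.0 ± 0.1 (SE), edgeR adjusted p = 0.992). The reads annotated to Eef1a1 itself came to 9220 RPM in CD24- and 8890 RPM in CD24+. Rpl12 encodes a protein of the large ribosomal subunit, and the window of its copy, chr10:29410001-29420000, had 956, 955 and 842 RPM in CD24- and 1260, 931 and 1010 RPM in CD24+. Its groups also overlapped (log2 fold change 0.22 ± 0.11 (SE), edgeR adjusted p = 0.149). The window chr11:120620001-120630000 matched Hmga1, a chromatin protein that binds AT-rich DNA, and fell by 0.29 on the log2 scale (edgeR adjusted p = 0.0295). That call was lost under several alternatives, among them TMM, with an adjusted p of 0.206. The reads annotated to Hmga1 itself fell from 34.9 to 22.1 RPM (log2 fold change -0.65, adjusted p = 0.000278).

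A few windows of this class changed strongly, and they were picked after their values were seen, beside the parent gene's own reads. Fabp5 encodes a fatty acid binding protein. The window chr14:50590001-50600000, where the reads matched Fabp5 transcripts encoded elsewhere, had 0.078, 0.422 and 0.0 RPM in CD24- and 2.65, 2.69 and 2.57 RPM in CD24+ (log2 fold change 3.83 ± 0.48 (SE), edgeR adjusted p = 1.81e-05). Reads annotated to Fabp5 rose from 2.2 to 19.7 RPM. The window chr4:121750001-121760000 had 66.9% of its reads matching Ckb, brain-type creatine kinase, and 27.8% matching the pseudogene Gm12892 in place, and rose from 1.45 to 11.7 RPM, while reads annotated to Ckb rose from 8.43 to 64.2 RPM. In the other direction, chr9:92870001-92880000 matched Itga6, the laminin-binding integrin subunit, and fell from 7.01 to 2.2 RPM, where the annotated reads fell from 172 to 47.1 RPM. The reads that matched Gm12892 but no transcript encoded elsewhere rose from 0.478 to 3.25 RPM (log2 fold change 2.66, edgeR adjusted p = 0.000639). A read that fits both places cannot be assigned to either, so for such reads the copy and its parent cannot be told apart.

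The unannotated windows also held genes without a read annotated to their name. Of 2812 genes in place with at least 100 unannotated reads, 877 had no read annotated to their symbol or to a synonym unique to them, and 526 of these are protein-coding. Labels that are not gene symbols were not tied to genes, such as NM_001033207, found 4 windows from the Nlrc5 window chr8:97000001-97010000. Some of the 877 may therefore have annotated reads under such a label. Together the 877 genes had 2631217 reads. In a fit of these gene sums together with all annotated genes, 170 were higher and 175 lower in CD24+ by edgeR, 39.3% of them, beside 45.6% of the 10869 annotated genes. The genes named next were chosen after their values were seen, from those with many reads or a large change among genes of at least 2000 reads. No strict ranking was followed, and some genes with larger changes are not named.

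Dsp encodes desmoplakin, which ties the desmosome plaque to keratin filaments. Its unannotated reads spread over 6 windows and were 90.4% coding sequence. They came to 675, 663 and 879 RPM in the CD24- plates and 25.2, 27.0 and 25.2 RPM in the CD24+ plates. Every CD24- plate lay far above every CD24+ plate (log2 fold change -4.84 ± 0.13 (SE), edgeR adjusted p = 6.26e-09). The isolated decreases of the naming rule include a pair of Dsp windows. At chr13:38270001-38280000 the level was 105, 104 and 136 RPM in CD24- and 4.53, 4.49 and 3.66 RPM in CD24+, and at chr13:38250001-38260000 it fell from 9.61 to 0.25 RPM.

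Other genes without a read annotated to their name were lower in CD24+ by smaller amounts. Arhgef5, a guanine nucleotide exchange factor, had 373, 364 and 361 RPM in CD24- and 197, 176 and 194 RPM in CD24+, without overlap (log2 fold change -0.95 ± 0.08 (SE), edgeR adjusted p = 5.2e-06). Eml2, a microtubule-associated protein, fell from 107 ± 13.9 to 43.2 ± 5.55 RPM (SD, n = 3 plates). Fnip2, a partner of folliculin, fell from 53.1 to 21.5 RPM, and Ttc7b, a subunit of a phosphatidylinositol 4-kinase complex, from 33.9 to 13.6 RPM.

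Other genes rose. Vgll3 encodes a transcriptional cofactor of TEAD proteins. It had 5.22, 5.28 and 3.73 RPM in CD24- and 75.2, 57.6 and 83.8 RPM in CD24+, without overlap (log2 fold change 3.92 ± 0.18 (SE), edgeR adjusted p = 1.03e-07). Synpo, an actin-associated protein, had 6.63, 6.12 and 2.82 RPM in CD24- and 32.1, 41.4 and 53.1 RPM in CD24+, and its log2 fold change was 3.02 ± 0.26 (SE). Adamts9, a secreted metalloproteinase of the matrix, rose from 18.1 ± 5.09 to 93.1 ± 21.7 RPM, and Adamtsl3, a related matrix protein without protease activity, from 8.31 ± 1.2 to 32.1 ± 3.55 RPM. H2-Q4, a class I histocompatibility gene, rose from 69.2 ± 4.86 to 133 ± 23.3 RPM, but it has close paralogs that share reads with it.

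Several of the most abundant members did not pass the test. Mki67, the proliferation antigen, had 664, 654 and 751 RPM in CD24- and 491, 752 and 700 RPM in CD24+ (log2 fold change -0.09 ± 0.14 (SE), edgeR adjusted p = 0.632). The low value was that of CD24+ plate 1. Hspg2, which encodes perlecan of the basement membrane, had means of 441 ± 18.7 and 405 ± 46.2 RPM, and Plxnb2, a semaphorin receptor, 437 ± 55.0 and 452 ± 43.3 RPM.

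The remaining genes in place were annotated, and their unannotated reads extended them, mostly in the 3' UTR. In 1912 genes with at least 100 annotated and 100 unannotated reads, the unannotated share of the gene's reads was computed for each library. The groups did not overlap in 658 genes, with the share higher in CD24+ in 560, which is 29.3% of those tested, and lower in 98, which is 5.13%. In the 1464 genes whose unannotated part was mostly 3' UTR, 490 were higher and 64 lower, and in the other 448 genes 70 were higher and 34 lower. The median difference over the 1912 genes was 0.891 percentage points.

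Of the 43 genes with at least 10000 unannotated reads, the groups did not overlap in 24, with 22 higher and 2 lower in CD24+, and the median difference was 1.87 points. The genes with the largest shifts among these are given first. Rcc2, a regulator of chromosome condensation, had an unannotated share of 33.4%, 33.7% and 31.6% in CD24- and 39.9%, 41.5% and 41.5% in CD24+. Its unannotated reads rose by a log2 fold change of 0.51 (edgeR adjusted p = 0.000268), while the annotated reads had one of 0.01 (adjusted p = 0.949). Rps6ka3, the kinase RSK2, had shares of 62.6%, 63.1% and 62.7% in CD24- and 69.8%, 70.4% and 69.5% in CD24+, with log2 fold changes of 0.91 and 0.46. Cmtm4, a membrane protein of the MARVEL family, had 71.7%, 73.5% and 72.1% in CD24- and 80.0%, 78.2% and 80.2% in CD24+. In all 3 genes the CD24+ plates lay above the CD24- plates. Ddr2, a collagen receptor kinase, rose in both parts, with log2 fold changes of 2.3 and 1.9, and its share had means of 50.6% and 57.2%. The opposite order was seen in Celf1, an RNA-binding splicing factor, with 46.2%, 46.2% and 44.5% in CD24- and 44.2%, 43.7% and 43.5% in CD24+. In Uhmk1, a kinase, both parts fell by 0.8 on the log2 scale and the shares overlapped. All 6 were picked with their values in view.

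In windows on a gene in place a median of 5.56% of the reads held a hexamer where the window was higher in CD24+, 3.72% where it was lower and 3.19% where it was not called. In windows without a transcript the medians were 4.64%, 5.23% and 4.85%, so the order of the higher and lower windows was not the same in both classes. The median GC content differed little, from 46.4% to 47.6% over the same groups of windows on a gene in place. A hexamer in a read is a match of letters and marks no cleavage site.

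The 10 largest increases under the naming rule ranged from a log2 fold change of 4.2 to 5.2, and the 10 largest decreases from -5.33 to -6.9. The rule asked for at least 2 RPM in the higher group, at least 20 distinct sequences, no sequence with 50% of the reads and groups without overlap, which 1936 called windows met. The separation of the groups in these windows is therefore set by the rule. Such windows also passed the minimum through the group where they are high, as chr13:28100001-28110000 did with 272 of its 275 reads from CD24-. Their adjusted p-values thus describe windows picked by these same values.

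**Figure D3:**
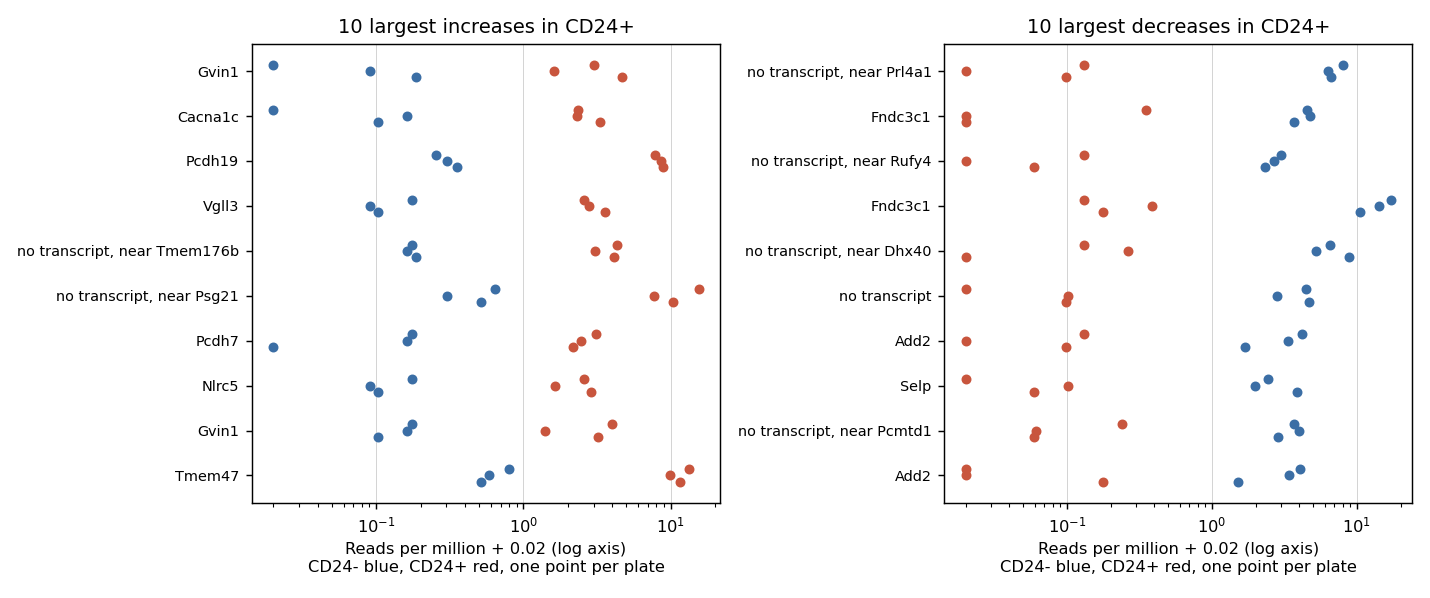
Each row is a window of the 10 largest increases (left) or decreases (right) in CD24+, named by its gene in place or, without a transcript match, by the nearest annotated gene, and each point is a plate, with RPM plus 0.02 on a log axis. The naming rule required separate groups, for example 7.85 to 8.84 against 0.234 to 0.331 RPM in the Pcdh19 window.

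Among the increases, 8 windows lay on a gene in place and 2 had mostly unmatched reads. The windows chr7:113040001-113050000 and chr7:112970001-112980000 matched Gvin1, a very large interferon-inducible GTPase. The first had 0.0, 0.0704 and 0.166 RPM in CD24- and 2.98, 1.59 and 4.63 RPM in CD24+. Only 3 of its reads came from CD24-, and the level in CD24+ was 40.7 times as high, with an exact binomial 95% interval of 13.7 to 199 that covers counting error only. Reads annotated to Gvin1 rose from 0.332 to 5.53 RPM. The Gvin genes are near-identical copies, so the assignment is uncertain. Nlrc5, the transactivator of class I histocompatibility genes, had 0.156, 0.0704 and 0.0828 RPM at chr8:97000001-97010000 in CD24- and 2.54, 1.63 and 2.84 RPM in CD24+ (log2 fold change 4.4 ± 0.49 (SE), edgeR adjusted p = 5.66e-06).

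The adhesion and channel genes among the increases were measured by their 3' UTRs. Pcdh19, a protocadherin, had 0.234, 0.281 and 0.331 RPM at chrX:130110001-130120000 in CD24- and 7.85, 8.57 and 8.84 RPM in CD24+ (log2 fold change 4.88 ± 0.25 (SE), edgeR adjusted p = 2.28e-09). The window chr5:58520001-58530000 of Pcdh7, another protocadherin, had 0.156, 0.141 and 0.0 RPM in CD24- and 3.1, 2.45 and 2.14 RPM in CD24+. Both protocadherin windows were isolated. The window chr6:118530001-118540000 of Cacna1c, a pore subunit of L-type calcium channels, rose 35.6-fold by reads, with a counting interval of 12.0 to 175 and 3 reads in CD24-. Its annotated reads rose from 2.17 to 22.6 RPM. Tmem47, a junction protein, rose from 0.613 ± 0.148 to 11.6 ± 1.64 RPM at chrX:78340001-78350000, and its annotated reads from 1.96 to 29.7 RPM. The Vgll3 window chr16:65820001-65830000 held coding reads and rose from 0.103 to 2.97 RPM.

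The remaining increases were led by unmatched reads. The window chr6:48780001-48790000, which also holds reads annotated to Tmem176b, a transmembrane protein, had 0.156, 0.141 and 0.166 RPM in CD24- and 4.31, 3.02 and 4.09 RPM in CD24+. None of its reads matched a transcript (log2 fold change 4.54 ± 0.37 (SE), edgeR adjusted p = 2.42e-07), and reads annotated to Tmem176b rose from 21.5 to 290.0 RPM. The window chr7:19260001-19270000, whose tiled stretch is printed above, had 0.624, 0.281 and 0.497 RPM in CD24- and 15.5, 7.67 and 10.3 RPM in CD24+. Of its reads, 48.8% matched coding sequence of Psg20, a pregnancy-specific glycoprotein, and 51.2% matched nothing. Psg21, annotated 3 windows away, had only 0.0276 and 0.29 RPM.

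The largest decrease was at chr13:28100001-28110000, which had no transcript match. It had 8.03, 6.26 and 6.62 RPM in CD24- and 0.111, 0.0 and 0.0778 RPM in CD24+. The 3 reads of the CD24+ plates make the level in CD24- 137 times as high, with a counting interval of 46.5 to 670.0 (edgeR adjusted p = 6.12e-09). The same window held reads annotated to Prl4a1, a prolactin family gene, which fell from 3.77 to 0.0628 RPM. The window chr1:74170001-74180000 held reads annotated to Rufy4 and fell from 2.65 to 0.0498 RPM, with 2 reads in CD24+, while the annotated reads of Rufy4 fell from 9.97 to 0.245 RPM.

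The decreases on a gene in place followed genes whose annotated reads were also low in CD24+. Fndc3c1 had 17.2, 14.1 and 10.4 RPM at chrX:103430001-103440000 in CD24- and 0.111, 0.367 and 0.156 RPM in CD24+ (log2 fold change -5.84 ± 0.31 (SE), edgeR adjusted p = 2.92e-09). Add2, a spectrin-binding adducin, had a pair of windows of 3' UTR reads. The first, chr6:86060001-86070000, had 4.13, 3.31 and 1.66 RPM in CD24- and 0.111, 0.0 and 0.0778 RPM in CD24+, and annotated Add2 reads fell from 50.3 to 1.73 RPM. Selp, the adhesion receptor P-selectin, fell from 2.73 to 0.0402 RPM at chr1:166040001-166050000, and its annotated reads from 115 to 2.81 RPM.

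In 2 of the largest decreases the neighbouring gene did not move with the window. The window chr11:86620001-86630000 had 6.47, 5.21 and 8.86 RPM in CD24- and 0.111, 0.245 and 0.0 RPM in CD24+, and 99.6% of its reads matched no transcript. Dhx40, an RNA helicase gene annotated in the same window, had 54.1 and 47.7 RPM (log2 fold change -0.19, edgeR adjusted p = 0.168). The other, chr1:7010001-7020000, fell from 3.47 to 0.1 RPM and is one of 4 neighbouring windows with smaller log2 changes in the rest. At chr1:7030001-7040000, an isolated decrease under the naming rule, the level was 52.3, 56.0 and 55.8 RPM in CD24- and 1.77, 1.96 and 2.14 RPM in CD24+ (log2 fold change -4.77 ± 0.13 (SE), edgeR adjusted p = 1.25e-11). The window beside it, chr1:7040001-7050000, fell from 17.1 to 0.653 RPM. The window between, chr1:7020001-7030000, fell from 10.7 to 0.944 RPM (log2 fold change -3.63 ± 0.23 (SE)), and 76.1% of its reads matched no transcript, 12.5% matched Acbd5, encoded elsewhere, and 11.4% the processed pseudogene Gm5694 in place. In the other 3 windows no read matched a transcript. The nearest annotated gene was Pcmtd1, 3 to 6 windows away, whose reads rose from 19.8 to 29.3 RPM. At chr1:7030001-7040000 the reads covered 3446 bases in 9 stretches, the longest of 946 bases, and 49.6% of the reads lay on the plus strand, as the kit does not keep strand.

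A further isolated decrease was at chr13:103160001-103170000, with no gene-annotated read within 10 windows. It had 4.44, 2.81 and 4.64 RPM in CD24- and 0.0, 0.0816 and 0.0778 RPM in CD24+ (log2 fold change -5.72 ± 0.44 (SE), edgeR adjusted p = 1.39e-07). Its reads lay in 21 stretches with 2513 covered bases.

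The other windows without a transcript were chosen after their values were seen, by their number of reads or their change. The window chr17:27030001-27040000 held 21729 reads, of which 78.7% matched nothing and 21.3% matched noncoding transcripts in place, with 20.7% for AC144621.3. It had 363, 357 and 322 RPM in CD24- and 109, 131 and 153 RPM in CD24+ (log2 fold change -1.4 ± 0.12 (SE), edgeR adjusted p = 3.1e-07). Every CD24- plate was above every CD24+ plate, and Kifc1, a kinesin gene annotated 2 windows away, had 80.5 and 76.0 RPM. The window chr2:134550001-134560000 rose from 0.548 ± 0.266 to 7.61 ± 0.179 RPM, and Plcb1, annotated 6 windows away, from 42.7 to 61.8 RPM. Near Sgcd, a sarcoglycan gene, chr11:46780001-46790000 rose from 0.452 to 6.41 RPM, beside 0.152 and 2.74 RPM for the annotated gene. At chr6:38640001-38650000, 59.9% of 14638 reads matched nothing and the rest the 3' UTR of Hipk2, a nuclear kinase, and the window rose from 102 ± 1.21 to 173 ± 28.3 RPM.

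Most called windows stood alone. Of 961 runs of higher windows, 127 held at least 2 adjacent windows, with 286 of the 1120 higher windows. Of 840 runs of lower windows, 170 did, with 431 of the 1101 lower windows. The longest run of higher windows covered 80 kb at chr6:92790001-92870000, which holds Adamts9. Its 8 windows had log2 fold changes of 2.04 to 2.68, none of their groups overlapped, and the highest edgeR adjusted p was 0.000263. The longest run of lower windows covered 120 kb at chr4:138930001-139050000 and holds Ubr4, a ubiquitin ligase of the N-degron pathway. Its 12 windows had log2 fold changes of -0.98 to -0.44. Of these windows, 3 lost the call with DESeq2, 8 with each distinct sequence counted once and up to 4 when 1 library was left out. Runs of 7 windows followed Nup205, a nuclear pore scaffold protein, at chr6:35130001-35200000 with -0.73 to -0.62, and Rab3gap2, a subunit of the Rab3 GTPase activator, at chr1:187040001-187110000 with -1.18 to -0.92. The first Rab3gap2 window lost its call with DESeq2 (adjusted p = 0.0684), with each distinct sequence counted once (0.132), without CD24+ plate 2 (0.0882) and without CD24- plate 3 (0.052), and the third lost it with distinct sequences (0.0509). The windows of a run share a gene and are not replicates of the change. Runs were built from called windows only, so the separation of their groups largely follows from that choice.

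**Figure D4:**
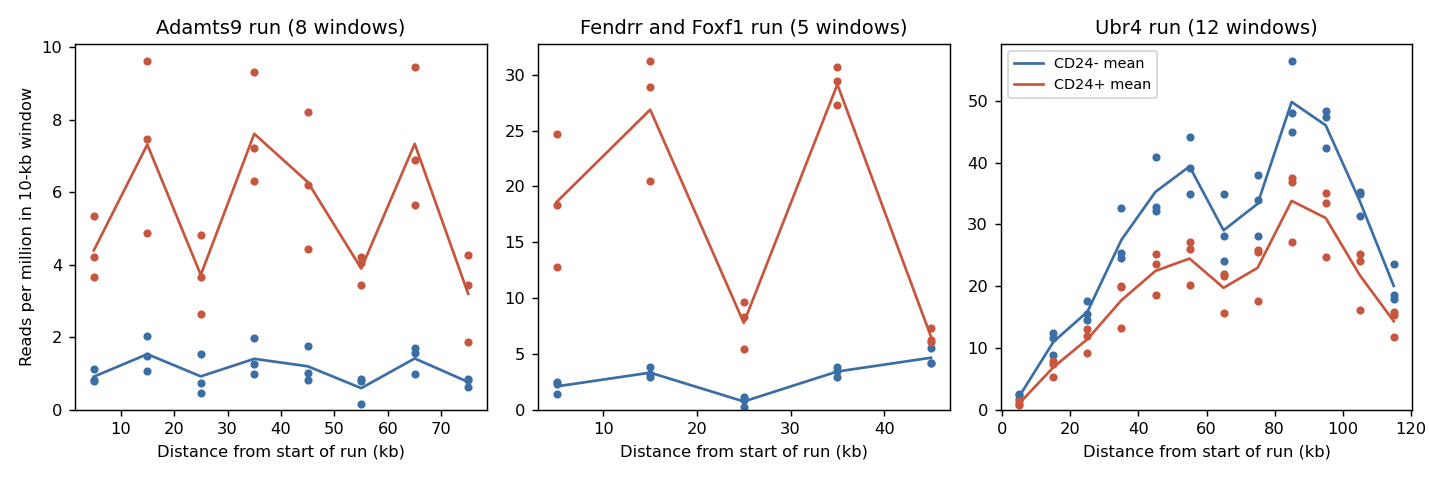
RPM in consecutive 10-kb windows is plotted against the distance in kb from the start of the run, with a point for each plate and a line through the mean of each group. The Adamts9 and the Fendrr and Foxf1 runs are higher in CD24+ and the Ubr4 run is lower in CD24+, and in each of the 25 windows the groups are apart. Only called windows could join a run, so this separation is largely set by the choice.

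The second longest run of higher windows lay at chr8:123580001-123630000. It holds Fendrr, a long noncoding RNA transcribed away from Foxf1, and Foxf1, a forkhead transcription factor of mesenchyme. The window chr8:123580001-123590000 had 2.34, 2.53 and 1.41 RPM in CD24- and 12.8, 18.3 and 24.7 RPM in CD24+, and 67.8% of its reads matched no transcript while 32.2% matched Fendrr. The next window had 3.82, 3.17 and 2.98 RPM in CD24- and 20.5, 28.9 and 31.2 RPM in CD24+, with 89.9% unmatched reads. The Foxf1 window chr8:123610001-123620000 held 3' UTR reads and had 3.51, 2.96 and 3.81 RPM in CD24- and 27.3, 30.7 and 29.4 RPM in CD24+ (log2 fold change 3.1 ± 0.14 (SE), edgeR adjusted p = 4.66e-10). Reads annotated to Foxf1 under its older name rose from 2.3 to 24.1 RPM. The last window of the run belongs to Mthfsd and rose by 0.47 on the log2 scale (adjusted p = 0.0444), a call that was lost under several alternatives. The third run covered 40 kb of the Zbtb20 3' UTR region at chr16:43610001-43650000, with log2 fold changes of 0.69 to 1.24. Its first window lost the call without CD24+ plate 2 (adjusted p = 0.118), without CD24+ plate 3 (0.0536) and without CD24- plate 1 (0.143). Zbtb20 is a zinc finger repressor, and its annotated reads had a log2 fold change of 0.93.

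The long noncoding RNAs were taken from a list of 38 genes. Unannotated reads in the kept windows matched 22 of them, and 20 had at least 100 such reads. Of these, 9 were lower and 1 was higher in CD24+ and 10 did not pass the test, beside 23.8% lower and 21.7% higher of the annotated genes. The median log2 fold change of the 20 was -0.27. Gas5, a host of small nucleolar RNAs, had 122, 116 and 141 RPM in CD24- and 41.0, 57.4 and 56.6 RPM in CD24+, without overlap (log2 fold change -1.28 ± 0.13 (SE), edgeR adjusted p = 2.2e-05). Snhg1 fell from 50.5 ± 2.91 to 30.5 ± 2.2 RPM, Snhg3 from 3.72 ± 1.3 to 1.3 ± 0.363 RPM, Snhg5 from 25.7 to 18.1 RPM and Snhg8 from 16.0 to 11.2 RPM. The Snhg1 window chr19:8800001-8810000 lost its call under several alternatives, among them DESeq2 (adjusted p = 0.0523). The Snhg8 window lost its call with limma after quantile normalization (adjusted p = 0.0548). Snhg17 had 37.8 and 35.6 RPM with overlapping groups, and Snhg12 rose from 4.76 ± 0.482 to 7.31 ± 2.01 RPM (adjusted p = 0.0494). The window of Snhg12 lost its call when either CD24+ plate 1 or 3 or CD24- plate 2 or 3 was left out, with adjusted p of 0.0533 to 0.074.

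**Figure D5:**
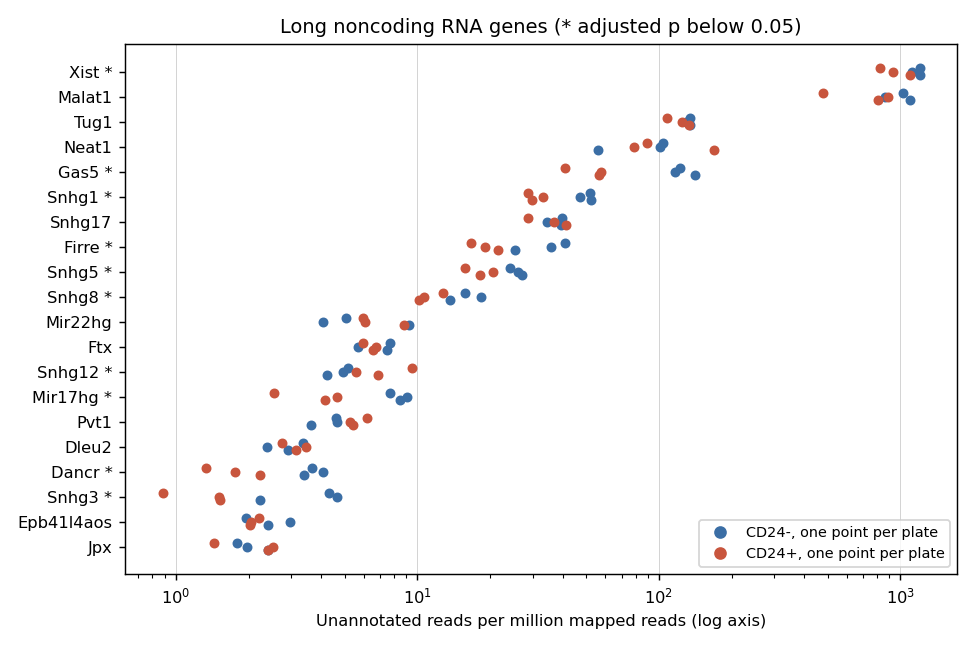
Unannotated RPM of 20 long noncoding RNA genes on a log axis, with a point for each plate, CD24- in blue and CD24+ in red. The Gas5 plates range from 116 to 141 in CD24- and from 41.0 to 57.4 in CD24+, whereas the Malat1 and Neat1 groups overlap.

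Among the other lower genes, Mir17hg, the host of the miR-17 cluster, fell from 8.41 ± 0.679 to 3.79 ± 1.1 RPM, and Dancr from 3.71 ± 0.345 to 1.77 ± 0.446 RPM. Firre, an X-linked RNA with a role in nuclear organisation, had 34.0 ± 7.81 RPM over 7 windows in CD24- and 19.1 ± 2.42 RPM in CD24+ (SD, n = 3 plates), without overlap (log2 fold change -0.82 ± 0.16 (SE), edgeR adjusted p = 0.00238). Its window chrX:47960001-47970000 lost the call under several alternatives, among them DESeq2 (adjusted p = 0.0637) and TMM (0.0521). Xist, which coats the inactive X chromosome, had 1200, 1120 and 1200 RPM in CD24- and 825, 934 and 1090 RPM in CD24+. It fell by 0.3 on the log2 scale (adjusted p = 0.0381), and both of its called windows lost the call under several alternatives, among them TMM, with adjusted p of 0.0776 and 0.0697. A further 62990 reads carried an annotation with its name, and these did not pass the test (log2 fold change -0.21, adjusted p = 0.123). Malat1, an abundant nuclear RNA, had 1020, 863 and 1090 RPM in CD24- and 477, 889 and 807 RPM in CD24+, with overlap (adjusted p = 0.0813), and the low value was that of CD24+ plate 1. Neat1, the scaffold of paraspeckles, had 104, 101 and 56.1 RPM in CD24- and 89.4, 78.8 and 169 RPM in CD24+ (adjusted p = 0.313). Its window chr19:5840001-5850000 held 10350 reads (log2 fold change 0.42), while chr19:5820001-5830000 and chr19:5830001-5840000 had -1.02 and -1.19. None of them was called, but the last gained a call under several alternatives, among them leaving out CD24+ plate 2 (-2.31, adjusted p = 0.000953). Bvht, a long noncoding RNA of heart development, had too few reads for the gene fit, with 0.234, 0.211 and 0.0828 RPM in CD24- and 1.77, 1.22 and 1.52 RPM in CD24+.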

How the data were processed

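RNA of 3 plates each of CD24- and CD24+ sorted Mvt1 cells was sequenced on an Illumina HiSeq instrument after an unstranded library preparation. Before deposit the authors cut each read to 47 nt, merged identical reads with their counts and mapped the result without mismatches to the mouse genome (mm9 per the submitters' processing notes), with 1 location and 1 annotation for each sequence. Neither mapping tool nor annotation source was given in the sources used here. The deposited values are raw counts of each distinct sequence.

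Counts of sequences with an empty annotation were summed in 10-kb windows, with a minimum of 100 reads over 6 libraries, and gene, repeat and small RNA windows were summed alike. All 45974 features were tested with edgeR 4.0.16 (R 4.3.3, quasi-likelihood, Benjamini-Hochberg adjustment) with library sizes set to all mapped reads; the script was tested on simulated data. RPM is reads scaled to 1000000 mapped reads, and 1 read is 0.0389 to 0.111 RPM. Shares were compared by exact permutation tests. Each distinct sequence was matched exactly to 141767 transcripts of GENCODE M21, which is on a later build, so "in place" means the same chromosome within 8 Mb of the position. No mm9 genome was used.

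Windows were named by a rule: the 10 with most reads, the 10 largest increases and decreases under limits on level and distinct sequences, the 5 largest isolated ones in each direction and the 3 longest runs. The windows, lists and rule were chosen with earlier results of these data known. Alternatives covered scaling, DESeq2 1.42.0, limma 3.58.1 after quantile normalization, minimum reads, window grid, distinct sequences, a replicate block and each library left out. Results on some genes are not reported here.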

Additional observations from a re-analysis of the deposited data

How the results depend on the processing

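The difference in the unannotated share of mapped reads, 0.422 percentage points, changed sign to -0.607 without CD24+ replicate 1 (exact permutation p = 0.2), -0.143 without mitochondrial sequences (p = 0.2), -0.0953 without the 10 windows with the most reads (p = 0.4) and -0.127 for sequences without a transcript match (p = 0.1). Leaving out each library gave -0.607 to 1.03 points for it, 787 to 1046 higher windows, 793 to 1042 lower windows and 646 to 810 isolated windows called. Higher windows numbered 456 at an absolute log2 fold change of at least 1, 592 at a minimum of 500 reads and 153 for sequences without a transcript match. Lower windows numbered 350, 632 and 309 under the same settings, 1661 in 1-kb windows, 714 with DESeq2 and 501 with each distinct sequence counted once. Isolated windows called numbered 292, 491 and 157 under the first 3 settings, 1366 in 1-kb windows, 489 with distinct sequences and 1402 at a minimum of 10 reads. The cause of these differences was not tested, apart from the fewer or more windows that a setting itself tests. Without CD24+ replicate 1, chr1:24610001-24620000 turned to -0.26 and chrM:1-10000 to -0.3, and without CD24+ replicate 3 they reached 0.28 and 0.22. Of 1800 values over 150 named windows, 1671 kept direction and side of the threshold, 106 lost the call and 21 gained it. The settings without mitochondrial or matched sequences were chosen after seeing the data. The alternative with a single exact genome match was not run, since no mm9 genome was used. Depth limits windows near 100 reads, where 1 read is up to 0.111 RPM.

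Samples with the same replicate number shared only a number, since their deviations correlated at 0.0297, -0.2064 and -0.128. With the replicate block, 966 windows were higher, 967 lower and 739 isolated windows were called. Under it the Hmga1 window (adjusted p = 0.0588) and a Firre window (0.0811) lost the call, and both Malat1 windows and a Neat1 window (-1.38, adjusted p = 0.0387) gained one.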
